A study of Homo sapiens with 29 samples.

Results

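The comparison asks whether a melanoma cell line responds to a BRAF inhibitor the second time as it did the first. WM239A is a human metastatic melanoma cell line, here made to overexpress BRAF-V600E, a mutant kinase that keeps MAPK signalling switched on in many melanomas. LGX818 (encorafenib) inhibits that kinase. All 4 groups compared carry the BRAF-V600E construct and come from the same line, with 3 libraries each, so 12 of the 29 libraries of the series enter the comparison. The untreated group received no drug. The week 1 group had 500 nM LGX818 for 7 days. The week 2 group had 7 days of 500 nM LGX818 and then 7 days of DMSO, the solvent alone. The week 3 group had 7 days of drug, 7 days of DMSO and then a further 7 days of 500 nM LGX818. In the count table the week 3 columns carry a name that says off drug, while the sample titles and treatments say on drug. The titles were followed.

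Per gene, the first response is the log2 change from untreated cells to week 1, and the second response is the log2 change from week 2 off drug to week 3 back on drug. The interaction is the second response minus the first. A positive interaction therefore means that the second response lay above the first, whether because the gene was induced more or repressed less. The same number can be read another way. It equals the difference between week 3 and week 1, both on drug (the end difference), minus the difference between week 2 off drug and untreated cells (the start difference). Whether the 3 libraries per group stem from different cultures is not in the labels, and p-values therefore measure only the spread between these libraries, which may be technical. The labels also do not say how the construct is driven or whether the cells are 1 clone. Untreated cells kept as long as week 3 were not analysed here, so the second response and the time in culture cannot be told apart.

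BRAF-V600E activates MEK and then ERK, and ERK induces both growth genes and its own inhibitors, among them the DUSP phosphatases and the SPRY and SPRED proteins. Inhibition of the kinase lowers those genes and slows division. Melanoma cells under such drugs are known to shift along a range between a pigmented state led by MITF and an undifferentiated, invasive state marked by AXL. When the drug is taken away from cells that carry a great deal of BRAF, ERK activity can rebound above its former level.

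The 12 libraries held between 24736045 and 35804978 counts. In 2 groups 1 library stood apart from the others: replicate 3 of week 2 off drug and replicate 1 of week 3 on drug each had a chi-square per gene above 15 against both other libraries of their group. Without both, 9740 genes were called, and 8800 of the 9898 calls remained, all in the same direction. Melanocyte markers were present in every group, SOX10 at 478, 417, 342 and 251 CPM on average in untreated cells and at weeks 1, 2 and 3. The list as a whole fell further. It summed to 2408 to 2521 CPM per library untreated, 891 to 953 at week 1, 617 to 648 at week 2 and 438 to 566 at week 3. Markers of leukocytes summed to 5.84 to 7.29 CPM in untreated cells, 0.691 to 1.23 at week 1, 9.99 to 11.2 at week 2 and 1.56 to 2.14 at week 3, and TYROBP had 0 counts in all 4 groups. Of the keratinocyte and epithelial markers EPCAM had 0 counts in 3 groups and 3 counts at week 3, and the list summed to between 61.6 and 143.8 CPM per library. Endothelial markers summed to 115.6 to 137 CPM at week 2 and 40.2 to 55.8 CPM in the other groups. CDH5 had 0 counts at weeks 1, 2 and 3. Some members of these lists had their highest counts at week 2. In time order, PECAM1 had 5, 5, 221 and 13 counts and TIE1 1250, 1105, 6490 and 1260. KRT1 had 0, 0, 255 and 6 counts and LYZ 160, 13, 381 and 55. Others did not peak then, among them EGFL7 with 2300, 2707, 2109 and 2432 counts and KRT10 with 1007, 1860, 1171 and 1672. The part of such cells in the results was not tested.

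Gene expression differed between the exposures across much of the transcriptome. Of 20494 genes tested, 9898 were called in the interaction at an adjusted p under 0.05, which is 48.3%, with 4782 higher and 5116 lower (edgeR quasi-likelihood test with Benjamini-Hochberg adjustment). The background against which any count of called genes must be read is therefore high: 23.3% of all tested genes were called higher and 25.0% lower. An absolute log2 interaction of at least 1 was reached by 5186 called genes, or 25.3% (11.4% higher, 13.9% lower). The first exposure called 11098 genes (54.2%, with 27.5% higher and 26.7% lower) and the second 11536 (56.3%, with 27.8% higher and 28.5% lower). Both responses were similar in overall size, with a median absolute log2 change of 0.54 and 0.53, and yet the median absolute interaction was 0.69.

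The groups differed more before the second exposure than at its end. Week 2 off drug differed from untreated cells in 12293 genes (60.0%, with 31.2% higher and 28.8% lower), with a median absolute log2 difference of 0.61. Week 3 differed from week 1 in 6371 genes (31.1%, with 16.6% higher and 14.5% lower), with a median absolute log2 difference of 0.30. Among the 9898 genes with an interaction, 5223 were called in the start difference and not in the end difference, 893 in the end difference and not in the start difference, 3455 in both and 327 in neither. A call in one and not the other is a description of thresholds and was not itself tested.

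The first and second responses share no library, and across all tested genes their log2 changes had a Pearson correlation of 0.39. Genes called in both numbered 7428, which is 66.9% of the first list and 64.4% of the second. Of these, 4750 moved the same way and 2678 the opposite way. Genes are not independent replicates, so the correlation describes the 2 profiles and carries no test. All 2678 genes that moved in opposite directions were also called in the interaction, where they were 27.1% of the calls. That all were called largely follows from the definition, as the interaction is the second response minus the first. A further 2456 genes with an interaction were called in the first exposure alone and 2445 in the second alone, 1365 moved the same way but less in the second, 718 moved the same way and more in the second, and 236 were called in neither. A response that missed its threshold may still be present.

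**Figure D1:**
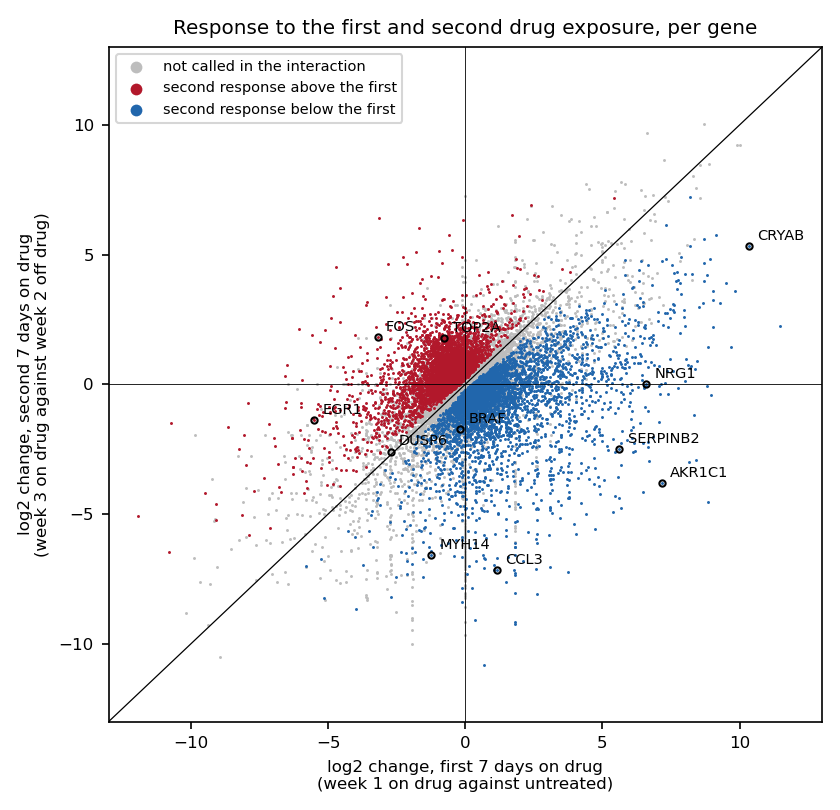
Each point is 1 of 20494 genes, plotted by its log2 change in the first 7 days on drug (x axis) and in the second 7 days on drug (y axis), and the diagonal marks equal responses. Red points above the diagonal are the 4782 genes called higher in the interaction, blue points below it the 5116 called lower, and grey points were not called. EGR1 and FOS lie above the diagonal, AKR1C1, NRG1 and SERPINB2 far below it, and DUSP6 close to it.

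To describe the calls by function, 26 gene lists were used, which together with 5 marker lists held 501 tested symbols. Over all genes the median interaction was -0.02. The lists spread widely around it, from -3.99 for secreted inflammatory factors to 2.39 for G2/M genes. At one end, most cell cycle genes and 10 of the 20 cholesterol synthesis genes fell in the first exposure and rose in the second. At the other, the medians of NRF2 targets, secreted factors and invasive-state genes were positive in the first exposure and smaller or negative in the second, and at week 2 off drug these lists stood above untreated cells by median log2 differences of 2.31, 3.35 and 2.30. Some genes stand in more than 1 list. Each count of called members below stands against 23.3% of all tested genes called higher and 25.0% called lower in the interaction. For the first exposure these shares were 27.5% and 26.7%, and for the second 27.8% and 28.5%. For the start difference they were 31.2% and 28.8%, and for the end difference 16.6% and 14.5%. These medians describe lists chosen with results of these data known and carry no test.

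**Figure D2:**
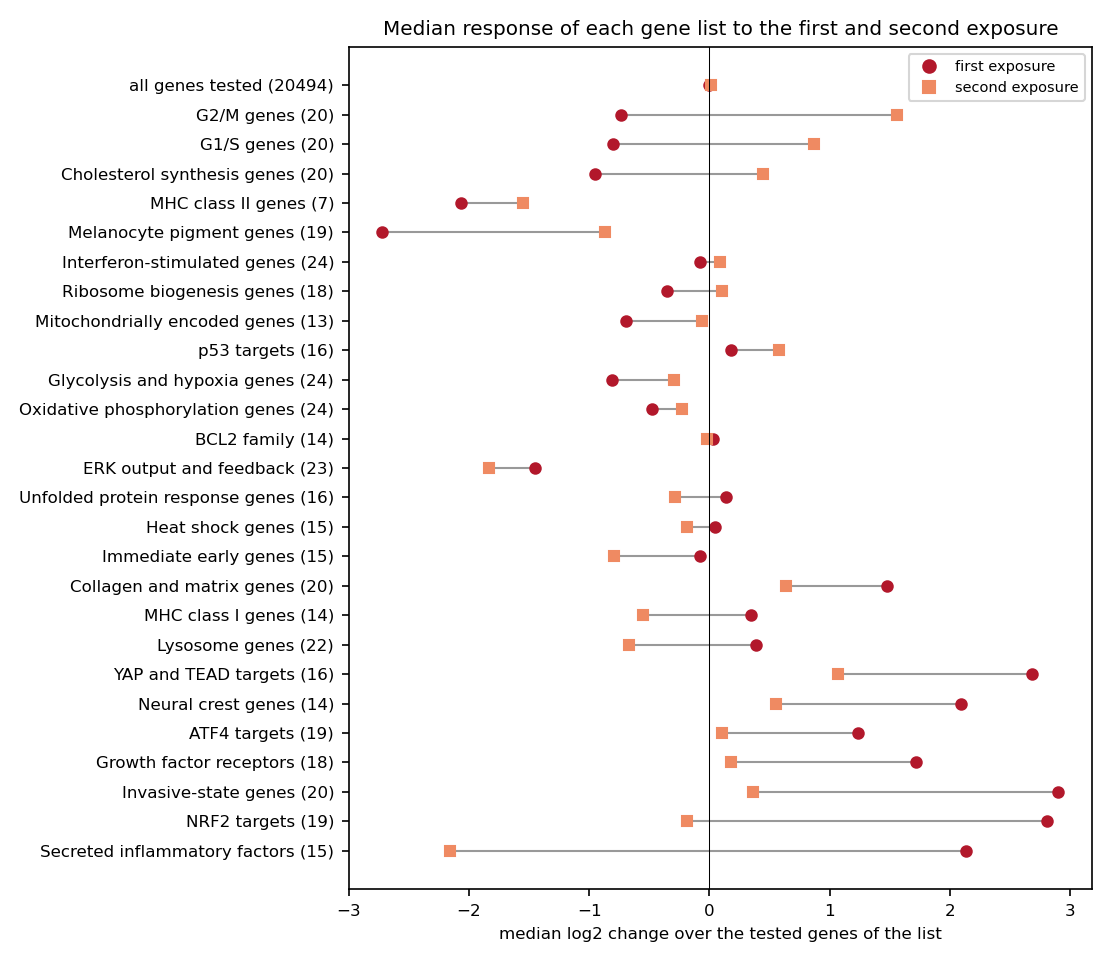
Median log2 change of the tested genes of each list (x axis, number of tested genes in brackets) in the first exposure (red circles) and the second (orange squares), ordered by the median interaction. G2/M genes moved from -0.74 to 1.56 and NRF2 targets from 2.81 to -0.19, while the median of all genes lay near 0 in both.

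Genes of the cell cycle moved in opposite directions in the 2 exposures. All 20 tested G2/M genes and all 20 G1/S genes had an interaction above 0 that passed the test, against 23.3% of all tested genes called higher. In the first exposure 19 G2/M genes fell and the other, CDC20, was at -0.10. In the second all 20 rose, with a median log2 change of -0.74 in the first exposure and 1.56 in the second. TOP2A, the DNA topoisomerase of dividing cells (chr17:40388516-40417950, GRCh38), stood at 354, 314 and 338 CPM without drug, 190.4, 185 and 210.3 CPM at week 1, 84.5, 90.8 and 118 CPM at week 2 off drug and 319, 353 and 338 CPM at week 3 back on drug. Its week 3 libraries lay in the range of untreated cells, above every week 1 library, and the week 2 libraries were the lowest of the 4 groups. The interaction of TOP2A was 2.57 (SE 0.14, adjusted p = 1.6e-15), from -0.78 in the first exposure and 1.78 in the second. In bulk RNA, fewer dividing cells and less of this RNA per cell cannot be told apart.

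The other G2/M genes followed the same course. MKI67, the proliferation marker, averaged 254 ± 39.0 CPM untreated, 122 ± 4.78 CPM at week 1, 80.1 ± 23.2 CPM at week 2 and 217 ± 43.4 CPM at week 3 (SD, n = 3), with an interaction of 2.49 (SE 0.29, adjusted p = 2.1e-08). CENPE, a motor protein of the kinetochore, had the largest interaction of the list at 2.83 (SE 0.25, adjusted p = 7.9e-11), and CENPF, another kinetochore protein, was at 2.56. CCNB1 and CCNB2, the cyclins that carry cells into mitosis, were at 2.04 and 2.45. AURKA, a mitotic kinase, had the smallest interaction at 1.54. Comparing the 2 on-drug times directly, 19 of the 20 genes were higher at week 3 than at week 1 and none lower. Of all tested genes 16.6% were higher and 14.5% lower. The median end difference of the list was 0.73, while CCNA2 did not pass. Against untreated cells, all 20 were lower at week 2 off drug, with a median start difference of -1.57.

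G1/S genes, which copy DNA and prepare for it, had a median log2 change of -0.80 in the first exposure and 0.87 in the second. In the first exposure 18 of 20 fell, and in the second 18 rose and none fell. TYMS, which makes thymidylate for DNA synthesis, stood at 179.7, 195 and 176 CPM without drug, 104, 106 and 109 CPM at week 1, 49.8, 49.1 and 59.8 CPM at week 2 off drug and 172, 160.3 and 142 CPM at week 3 back on drug. The TYMS libraries of the 4 groups did not overlap, in the order untreated, week 3, week 1 and week 2 from high to low. Its interaction was 2.36 (SE 0.12, adjusted p = 1.6e-16). GINS2 and CDC45, subunits of the replicative helicase complex, were at 2.28 and 2.08, and the MCM2 to MCM7 helicase subunits ranged from 1.47 for MCM5 to 2.0 for MCM6. SLBP and CCNE1 had the smallest interactions among those named here, 0.43 and 0.65, and neither passed the test in the second exposure.

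Promoters of the G2/M list were read for the words known from such genes, since the members moved together. The table of promoters (RefSeq, GRCh38.p14) gave the 250 bases before the start site for 16 of the 20 genes. The 6-base word of the cell cycle homology region, TTTGAA on either strand, was found in 8 of the 16 (50.0%), against 16.1% of 27305 genes with a promoter in the table, and CCAAT on either strand in 14 (87.5%), against 37.0%. Of 16 matched G1/S promoters, 1 held TTTGAA. As an example, the CCNB2 promoter lies at chr15:59104896-59105145 on the plus strand, with TTTGAA in capitals. A match is a description of letters and shows no binding.
CCNB2: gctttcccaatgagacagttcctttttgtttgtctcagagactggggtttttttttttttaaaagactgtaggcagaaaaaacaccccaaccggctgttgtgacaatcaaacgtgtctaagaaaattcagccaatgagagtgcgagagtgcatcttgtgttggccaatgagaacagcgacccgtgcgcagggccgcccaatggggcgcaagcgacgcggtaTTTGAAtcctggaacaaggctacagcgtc

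Cholesterol synthesis genes, the SREBP2-driven genes of sterol supply, had the same direction. Of 20 tested, 19 were called higher and none lower in the interaction, with a median log2 change of -0.95 in the first exposure and 0.44 in the second. In the first exposure 18 fell, and in the second 12 rose and 2, SQLE and STARD4, fell. DHCR7, the last enzyme of the pathway, stood at 134, 142 and 149 CPM without drug, 40.9, 44.8 and 38.4 CPM at week 1, 25.7, 27.3 and 26.7 CPM at week 2 off drug and 66.6, 60.3 and 60.4 CPM at week 3 back on drug. The DHCR7 libraries of week 3 were all above those of week 1 and below those of untreated cells, and week 2 off drug had the lowest values. Its interaction was 3.01 (SE 0.11, adjusted p = 1.3e-19). ACAT2, an acetyl-CoA acetyltransferase, followed with 2.61 (SE 0.12, adjusted p = 3.6e-17) from -0.98 in the first exposure and 1.62 in the second. HMGCS1, an early enzyme of the pathway, and INSIG1, its feedback inhibitor, were at 2.06 and 1.75. The sterol regulatory core TCACNCCAC, on either strand, was found in 0 of 13 matched promoters of the list and in 1.09% of all genes, and these letters in 250 bases say nothing about the factor.

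Most genes listed as outputs of ERK signalling fell in both exposures. Among 23 tested genes, 18 fell in the first exposure and 20 in the second, with a median log2 change of -1.45 in the first exposure and -1.83 in the second. The interaction called 7 higher and 11 lower, with a median of -0.21, against 23.3% and 25.0% of all tested genes. DUSP6, the phosphatase that turns ERK off, stood at 417, 419.5 and 426 CPM without drug, 60.9, 64.9 and 66.1 CPM at week 1, 639, 659.8 and 675 CPM at week 2 off drug and 116, 101 and 109 CPM at week 3 back on drug. All on-drug libraries of DUSP6 were below all libraries without drug, and its level at week 2 off drug was above that of untreated cells. The fall was 6.58-fold in the first exposure and 6.05-fold in the second, and the interaction of 0.12 (SE 0.09, adjusted p = 0.28) did not pass the test, with a 95% interval from -0.05 to 0.30 on the log2 scale. CCND1, the G1 cyclin under ERK control, had an interaction of -0.13 (SE 0.08, adjusted p = 0.21) and an interval from -0.29 to 0.03, which DESeq2 called at -0.17 (adjusted p = 0.037).

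Within the ERK list the members divided. SPRY4, an inhibitor of receptor signalling, fell by 12.2-fold and then 9.06-fold, for an interaction of 0.43 (SE 0.12, adjusted p = 0.0039). ETV4, a transcription factor kept up by ERK, had -4.35 in the first exposure and -3.31 in the second and an interaction of 1.04 (SE 0.13, adjusted p = 3.3e-08). SPRY1 fell by 4.42 and 2.32 on the log2 scale and had the largest positive interaction of the list at 2.09 (SE 0.21, adjusted p = 1.4e-09). In the other direction lay genes that were higher at week 2 off drug than in untreated cells. EMP1, a membrane protein, rose by 2.61 and then fell by 0.72, with an interaction of -3.33 (SE 0.10, adjusted p = 1.3e-21). EPHA4, a receptor tyrosine kinase, and SPRED3, an inhibitor of ERK signalling, also rose in the first exposure and fell in the second, at -3.12 and -2.60. FOSL1, an AP-1 subunit, rose in both, 1.84 in the first exposure and 0.47 in the second, for an interaction of -1.37 (SE 0.12, adjusted p = 2.0e-11). MYC fell in the first exposure and rose in the second, at -0.71 and 0.74.

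Immediate early genes, which respond to signals within minutes and encode mostly transcription factors, divided in the interaction, with 4 of 15 called higher and 8 lower. Over all tested genes these shares were 23.3% and 25.0%, so the higher count was near the background. EGR1, an early ERK-responsive factor (chr5:138465490-138469315), stood at 429, 391 and 438 CPM without drug, 9.10, 8.74 and 9.84 CPM at week 1, 425, 424 and 394 CPM at week 2 off drug and 164, 152 and 160.1 CPM at week 3 back on drug. Untreated and week 2 libraries of EGR1 overlapped, and every week 3 library was above every week 1 library, so that the fall was 45.5-fold the first time and 2.61-fold the second. Its interaction was 4.12 (SE 0.17, adjusted p = 8.8e-19), with an end difference of 4.10 and a start difference of -0.02. FOS, an AP-1 subunit, stood at 45.2, 50.3 and 52.0 CPM without drug, 5.09, 5.42 and 5.63 CPM at week 1, 26.2, 24.9 and 24.9 CPM at week 2 off drug and 101, 92.1 and 77.4 CPM at week 3 back on drug. The week 3 libraries of FOS were the highest of all and those of week 1 the lowest. FOS fell 9.12-fold in the first exposure and rose 3.56-fold in the second, for an interaction of 5.02 (SE 0.18, adjusted p = 8.4e-20).

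EGR2, a close relative of EGR1, had the opposite sign. It averaged 4.43 ± 0.636 CPM untreated, 4.19 ± 0.329 CPM at week 1, 111 ± 6.62 CPM at week 2 and 5.65 ± 0.744 CPM at week 3 (SD, n = 3). The first response of EGR2 was -0.08, which did not pass, and the second was -4.30, for an interaction of -4.22 (SE 0.16, adjusted p = 1.9e-19). ARC had a similar course, with 1.05, 1.06, 13.7 and 0.634 CPM in time order and an interaction of -4.46 (SE 0.45, adjusted p = 8.4e-10). For both genes the week 2 libraries lay above all untreated and week 3 libraries. JUN, another AP-1 subunit, rose 24.8-fold and then 2.51-fold, with an interaction of -3.31 (SE 0.14, adjusted p = 4.3e-18). EGR3 fell in both exposures, by 5.81 and 6.99 on the log2 scale.

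The promoters of EGR1 and EGR2 are shown because these relatives share a serum response word and differ in sign. The CArG box, read on both strands, was found in 2 of 12 matched promoters of the immediate early list, EGR1 and EGR2, and in 1.44% of 27305 genes. The windows, 250 bases before the RefSeq start in GRCh38.p14, lie at chr5:138465229-138465478 on the plus strand and chr10:62816367-62816616 on the minus strand, with the CArG boxes in capitals. EGR1 held 2 such boxes and the EGR2 window 1.
EGR1: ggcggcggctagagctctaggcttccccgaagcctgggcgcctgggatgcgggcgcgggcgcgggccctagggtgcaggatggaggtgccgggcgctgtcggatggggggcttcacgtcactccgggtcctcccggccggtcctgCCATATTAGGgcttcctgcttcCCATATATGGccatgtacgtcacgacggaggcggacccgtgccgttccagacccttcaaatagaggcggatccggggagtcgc
EGR2: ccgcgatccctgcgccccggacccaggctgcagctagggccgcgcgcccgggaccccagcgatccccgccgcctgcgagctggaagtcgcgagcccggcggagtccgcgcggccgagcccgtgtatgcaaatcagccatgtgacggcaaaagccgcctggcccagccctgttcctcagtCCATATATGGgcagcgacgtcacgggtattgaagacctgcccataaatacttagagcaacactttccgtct

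BRAF itself, which includes the overexpressed construct as far as its reads were counted to the gene, stood at 903, 889 and 893 CPM without drug, 803, 757 and 805 CPM at week 1, 3236, 3169.9 and 3289 CPM at week 2 off drug and 853, 910.4 and 1159.8 CPM at week 3 back on drug. The week 2 libraries were the highest, above every other library of BRAF in the comparison. BRAF fell by 0.18 on the log2 scale in the first exposure and by 1.73 in the second, for an interaction of -1.55 (SE 0.11, adjusted p = 3.3e-13). Its start difference was 1.85 and its end difference 0.31. Reads could be shared with the pseudogene BRAFP1, and native and construct transcripts cannot be told apart in gene counts.

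Melanocyte pigment genes fell in both exposures, and less in the second for most of those called. The list holds MITF, its targets and the enzymes of melanin synthesis. Among 19 tested genes 13 were called higher and 3 lower in the interaction, with a median log2 change of -2.72 in the first exposure and -0.87 in the second, and 12 of the called genes moved the same way with a smaller second response. They began the second exposure lower, with a median start difference of -1.39. MITF, the master factor of the lineage (chr3:69739435-69968337), stood at 361, 342 and 344 CPM without drug, 11.6, 11.5 and 11.1 CPM at week 1, 32.5, 30.5 and 41.2 CPM at week 2 off drug and 13.7, 14.4 and 20.7 CPM at week 3 back on drug. MITF at week 2 off drug was above both on-drug groups and below untreated cells without overlap. It fell 30.6-fold and then 2.14-fold, for an interaction of 3.84 (SE 0.18, adjusted p = 2.0e-17).

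DCT, an enzyme of melanin synthesis, fell 22.2-fold the first time and rose 1.60-fold the second, from 2.13 to 3.45 CPM, with an interaction of 5.15 (SE 0.29, adjusted p = 1.9e-15). TRPM1, a channel gene under MITF, fell by 4.90 on the log2 scale and was at -0.07 in the second exposure, at a level of 0.103 CPM at week 2. TYR, the first enzyme of the pathway, had -1.41 in the first exposure and -0.62 in the second, with an interaction of 0.78 (SE 0.14, adjusted p = 3.9e-05). PMEL and MLANA, melanosome proteins, had a lower mean at each later time, 647, 89.9, 39.8 and 9.38 CPM and 380.4, 38.2, 16.2 and 4.87 CPM in time order. TYRP1 was the exception with the largest negative interaction, at -3.54 (SE 0.50, adjusted p = 6.6e-07), as it rose from 0.169 to 9.84 CPM and then from 0.713 to 3.50 CPM. SOX10, the lineage factor above MITF, did not pass, at -0.25.

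Genes of the invasive state had risen in the first exposure and were still raised after the week off drug. Of 20 tested, 17 rose in the first exposure, while 9 rose and 8 fell in the second, with a median log2 change of 2.90 in the first exposure and 0.36 in the second. The interaction called 13 lower and 6 higher. AXL, a receptor tyrosine kinase that marks this state, stood at 3.36, 4.28 and 3.18 CPM without drug, 56.3, 58.5 and 58.8 CPM at week 1, 68.4, 72.9 and 72.5 CPM at week 2 off drug and 149.5, 140.2 and 138 CPM at week 3 back on drug. The AXL libraries of the 4 groups did not overlap and climbed at every step, 15.9-fold in the first exposure and 2.0-fold in the second, with an interaction of -2.99 (SE 0.14, adjusted p = 4.4e-17).

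THBS1, a matrix glycoprotein, rose 92.7-fold and 4.44-fold, and NRP1, a co-receptor, and PLAUR, the urokinase receptor, rose in the first exposure and fell in the second, at interactions of -4.34 and -4.11. ANGPTL4, a secreted regulator of lipid metabolism, had 2, 135, 392 and 134 counts over the 3 libraries of the groups in time order. TNC, a matrix protein, went the other way, at 1.5 (SE 0.15, adjusted p = 1.4e-09). CYR61 and LOXL2, which act in the matrix, rose in both exposures and more in the second, with 3.81 in the first exposure and 4.32 in the second for CYR61 and 2.81 in the first exposure and 3.25 in the second for LOXL2.

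Lists of related genes also had negative median interactions. Neural crest genes, which mark an undifferentiated state, were called lower in 8 of 14 and higher in 2, with a median interaction of -1.50. The higher count was 1 with DESeq2, without the count filter or without some single libraries. NGFR, a receptor of that state, rose 47.3-fold and 2.01-fold and was already at 115 CPM at week 2 against 7.61 CPM in untreated cells, for an interaction of -4.56 (SE 0.11, adjusted p = 3.2e-24). SLITRK6, a neuronal membrane protein, had returned to 1.34 CPM and rose again, 7.53 in the first exposure and 4.58 in the second. GFRA2, a receptor for neurturin, rose and then fell, with an interaction of -5.02 (SE 0.27, adjusted p = 5.9e-16). Growth factor receptors were called lower in 12 of 18 and higher in 2. PDGFRB, which is also in the fibroblast marker list below, and PDGFRA rose in the first exposure and fell in the second, with interactions of -4.27 (SE 0.27, adjusted p = 2.3e-14) and -3.37 (SE 0.24, adjusted p = 5.3e-13). NTRK2, a neurotrophin receptor, rose in both, at -3.73. FGFR1 was at 31.1, 24.3, 481 and 51.3 CPM in time order, with its peak at week 2 off drug. ROR1, a receptor for WNT5A, had the other sign, at 4.22 (SE 0.26, adjusted p = 2.3e-14), from -1.80 in the first exposure and 2.42 in the second.

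Collagen and matrix genes were called lower in 13 of 20 and higher in 1, and YAP and TEAD targets, which respond to cell tension and shape, lower in 10 of 16 and higher in 2. COL1A1, a chain of fibrillar collagen, rose in both exposures, by 8.20 and 7.22 on the log2 scale, with means of 0.778, 224, 4.43 and 661 CPM. COL6A3 rose from 1.48 to 15.7 CPM in the first exposure and fell from 326 to 53.1 CPM in the second, with an interaction of -6.04 (SE 0.22, adjusted p = 6.0e-20). LUM, a small proteoglycan, had the other sign, at 2.70 (SE 0.49, adjusted p = 3.4e-05), with 7.87 CPM at week 3. The list of 10 fibroblast markers summed to 71.2 to 76.5 CPM per library untreated, 336 to 345 at week 1, 69.1 to 73.2 at week 2 and 745 to 880.3 at week 3, most of it COL1A1 at the on-drug times. DCN had between 1 and 28 counts in a group and THY1 between 0 and 24, and the part of such cells was not tested. Among YAP targets ANKRD1, a nuclear repressor, rose from 0.0613 to 3.36 CPM and was at 6.96 and 5.59 CPM at weeks 2 and 3, for an interaction of -6.0 (SE 0.46, adjusted p = 6.4e-12). IGFBP3, a binding protein of growth factors, had an interaction of -2.90 (SE 0.12, adjusted p = 7.0e-19) and WWTR1, which encodes TAZ, one of 0.64 (SE 0.13, adjusted p = 1.7e-04).

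TIMP1, an inhibitor of matrix metalloproteinases, had little first response and a large second one. Its libraries stood at 289, 342 and 302 CPM without drug, 253, 271 and 236 CPM at week 1, 7647, 7836 and 5491 CPM at week 2 off drug and 338, 276 and 247 CPM at week 3 back on drug. Only the week 2 libraries of TIMP1 were set apart, and those of week 3 overlapped those of untreated cells. It fell by 0.29 on the log2 scale the first time and by 4.61 the second, for an interaction of -4.31 (SE 0.19, adjusted p = 3.9e-18).

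Secreted inflammatory factors had the most negative median of the lists, -3.99. The list holds interleukins, chemokines, EGFR ligands and metalloproteinases. Of 15 tested, 13 were called lower and none higher in the interaction, all 15 were higher at week 2 off drug than in untreated cells, and 11 then fell in the second exposure. In the first exposure 8 had risen and 3 fallen. IL11, a cytokine, averaged 0.654 ± 0.0762 CPM untreated, 13.7 ± 1.20 CPM at week 1, 94.3 ± 10.1 CPM at week 2 and 21.5 ± 3.80 CPM at week 3 (SD, n = 3), with an interaction of -6.51 (SE 0.23, adjusted p = 3.5e-20). MMP3, a metalloproteinase, was at 0.260, 3.02, 76.4 and 7.42 CPM in time order, with an interaction of -6.92 (SE 0.32, adjusted p = 1.7e-17). AREG, a ligand of EGFR, was at 0.439, 0.327, 100.5 and 1.01 CPM, with an interaction of -6.21 (SE 0.56, adjusted p = 8.8e-11). IL1B and LIF fell in the second exposure by 5.38 and 3.48 on the log2 scale.

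CSF2 had 1, 1, 82 and 0 counts over the groups in time order, and its call was lost without replicate 2 of week 1 (adjusted p = 1). IL6 rose in both exposures, at 0.0379, 2.25, 0.174 and 6.74 CPM in time order, and its interaction did not pass (adjusted p = 0.64). IL6, CSF2 and TNFSF10 had 3 or fewer counts in 1 of the groups, so the size of their changes is poorly determined. Outside the list, CCL3, a chemokine, stood at 0.0800, 0.162 and 0.114 CPM without drug, 0.193, 0.519 and 0.0658 CPM at week 1, 56.0, 61.6 and 41.5 CPM at week 2 off drug and 0.217, 0.366 and 0.525 CPM at week 3 back on drug. The week 2 libraries of CCL3 were above all others, which had under 1 CPM. Its interaction was -8.30 (SE 0.82, adjusted p = 6.8e-10), and reads could be shared with its near copies.

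NRF2 targets, the genes of the antioxidant response, rose in the first exposure without exception, all 19 tested, while in the second 4 rose and 9 fell. Over all tested genes 27.5% rose in the first exposure, and 27.8% rose and 28.5% fell in the second. The 4 that rose in the second were therefore near the background. The list had a median log2 change of 2.81 in the first exposure and -0.19 in the second. In the interaction 18 of 19 were called lower and none higher, against 25.0% of all genes called lower. TKT was the member that did not pass, at 0.08. At week 2 off drug 18 members were still above untreated cells, with a median start difference of 2.31. AKR1C1, an aldo-keto reductase (chr10:4963253-4983283), had the most negative interaction of the genes named with enough counts in every group. It stood at 0.160, 0.227 and 0.0757 CPM without drug, 24.3, 24.3 and 21.0 CPM at week 1, 53.5, 50.3 and 37.2 CPM at week 2 off drug and 4.25, 3.02 and 2.69 CPM at week 3 back on drug. The AKR1C1 libraries of the 4 groups did not overlap, and week 2 off drug was the highest. AKR1C1 rose 143-fold and then fell 14.1-fold, for an interaction of -10.98 (SE 0.34, adjusted p = 1.9e-21), and its reads could be shared with other AKR1C genes.

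SLC7A11, the cystine transporter that feeds glutathione synthesis, stood at 67.1, 50.8 and 67.5 CPM without drug, 589.6, 523 and 559 CPM at week 1, 634, 623 and 814 CPM at week 2 off drug and 247, 318 and 333 CPM at week 3 back on drug. The libraries of the 4 groups did not overlap, with week 2 the highest, then week 1, then week 3, and untreated cells the lowest. The interaction of SLC7A11 was -4.38 (SE 0.20, adjusted p = 2.2e-17). HMOX1, heme oxygenase, rose both times, by 4.85 and 0.99, while GCLM and TXNRD1, of glutathione and thioredoxin metabolism, rose and then fell. The ferritin chains FTH1 and FTL rose by 2.54 and 2.81 in the first exposure and did not pass in the second. SRXN1, sulfiredoxin, was at low levels of 0.177, 1.53, 2.40 and 0.325 CPM, with an interaction of -5.92 (SE 0.54, adjusted p = 1.0e-10). AKR1B10, another reductase, had an interaction of -5.54 (SE 0.31, adjusted p = 1.4e-15). The core of the antioxidant response element, TGACNNNGC on either strand, was found in 4 of 14 matched promoters (28.6%) and in 13.2% of all genes.

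Targets of ATF4, which answer amino acid shortage and other stress, were called lower in 16 of 19 and higher in 2, with a median log2 change of 1.23 in the first exposure and 0.10 in the second. ASNS, asparagine synthetase, rose 2.60 and then 0.36, and SESN2, a stress-induced inhibitor of growth signalling, rose 2.57 and then fell by 0.40, with an interaction of -2.97 (SE 0.12, adjusted p = 1.7e-18). ATF3, a stress-induced factor, was at -3.17 (SE 0.13, adjusted p = 1.7e-18). DDIT3 and TRIB3 rose in the first exposure and fell in the second. At the end, 16 of 19 were lower at week 3 than at week 1, and none higher, against 14.5% and 16.6% of all tested genes. Unfolded protein response genes were called lower in 8 of 16 and higher in 3. DNAJB9, a chaperone of the endoplasmic reticulum, led with -3.25 (SE 0.12, adjusted p = 1.8e-19), from a week 2 level of 116 CPM against 16.9 CPM untreated. HERPUD1 and SEL1L, of the degradation pathway in that compartment, followed at -1.33 and -1.12, and PDIA4, a disulfide isomerase, had the other sign at 0.36.

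Lysosome genes were called lower in 19 of 22 and higher in none, with a median log2 change of 0.39 in the first exposure and -0.67 in the second. Their levels were higher at week 2 off drug than in untreated cells for 19 of 22, and 17 fell in the second exposure. CTSL, a lysosomal protease, stood at 112, 123.4 and 106 CPM without drug, 163, 169 and 165 CPM at week 1, 1163, 1006 and 923 CPM at week 2 off drug and 157, 132 and 149 CPM at week 3 back on drug. The week 2 libraries of CTSL were far above all others, among which week 1 lay above untreated cells. CTSL rose 1.46-fold and then fell 7.04-fold, for an interaction of -3.36 (SE 0.14, adjusted p = 1.1e-18). SQSTM1, the autophagy receptor p62, had an interaction of -2.87 (SE 0.11, adjusted p = 4.7e-19), and PSAP, the precursor of saposins, one of -2.12 (SE 0.10, adjusted p = 5.9e-17). NPC2 and CTSB fell in both exposures and more in the second. ATP6V1H and TFEB were among those that did not pass.

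The palindrome CACGTG, the core of the CLEAR element known from lysosome genes, was found in 7 of 15 matched promoters of this list (46.7%) and in 7.73% of 27305 genes. Those 7 were CTSA, CTSD, GAA, LAMP1, MCOLN1, NEU1 and ATP6V0D1. The promoter of CTSD, cathepsin D, is given as an example with CACGTG in capitals, at chr11:1763928-1764177 on the minus strand (RefSeq, GRCh38.p14). CTSD rose in both exposures, at 2.05 and 0.72, with an interaction of -1.33 (SE 0.16, adjusted p = 5.5e-08).
CTSD: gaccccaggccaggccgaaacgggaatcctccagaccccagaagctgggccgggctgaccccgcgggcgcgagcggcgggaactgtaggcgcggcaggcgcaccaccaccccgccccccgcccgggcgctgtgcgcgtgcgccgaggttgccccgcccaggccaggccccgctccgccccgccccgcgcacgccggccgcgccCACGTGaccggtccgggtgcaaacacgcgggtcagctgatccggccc

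Among heat shock genes the interaction called 8 of 15 lower and 3 higher. The small heat shock proteins had the largest responses. CRYAB, alpha-B crystallin, averaged 2.03 ± 0.668 CPM untreated, 2673 ± 148 CPM at week 1, 24.0 ± 3.01 CPM at week 2 and 969.9 ± 35.0 CPM at week 3 (SD, n = 3), with an interaction of -5.0 (SE 0.20, adjusted p = 7.5e-19). HSPB3 had 0, 1121, 184 and 1040 counts in time order, and HSPB8 had an interaction of -2.03 (SE 0.13, adjusted p = 2.2e-14). HSPD1, the mitochondrial chaperonin, had the other sign, at 0.94 (SE 0.11, adjusted p = 9.5e-09).

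Class I antigen presentation genes were called lower in 11 of 14 and higher in none, and all 14 were higher at week 2 off drug than in untreated cells. In the first exposure 8 rose and none fell, and in the second 1 rose and 8 fell. TAP1, the peptide transporter, stood at 16.4, 18.3 and 15.6 CPM without drug, 35.6, 41.0 and 34.0 CPM at week 1, 138, 99.1 and 89.3 CPM at week 2 off drug and 60.7, 47.0 and 41.3 CPM at week 3 back on drug. The week 2 libraries of TAP1 were the highest and the untreated ones the lowest, without overlap with the on-drug groups. TAP1 rose 2.20-fold and fell 2.19-fold, for an interaction of -2.27 (SE 0.18, adjusted p = 9.6e-12). The immunoproteasome subunits PSMB10 and PSMB9 were at -1.95 (SE 0.29, adjusted p = 1.2e-06) and -1.89 (SE 0.22, adjusted p = 1.8e-08). B2M, the light chain, did not pass, at -0.10. Class II genes were called higher in 5 of 7 and lower in 1, and all 7 fell in the first exposure and 5 in the second. At week 3, 11 of the 14 class I and 5 of the 7 class II genes were higher than at week 1 and none lower. Of all tested genes 16.6% were higher and 14.5% lower at week 3 than at week 1. The difference between the classes was not tested. HLA-DMA, a peptide-loading chaperone, fell by 2.07 and was then at 0.31, with an interaction of 2.38 (SE 0.26, adjusted p = 6.4e-09). CD74, the invariant chain, was at 44.2, 5.94, 43.0 and 13.8 CPM in time order. CIITA, the class II transactivator, had the other sign at -0.88 (SE 0.26, adjusted p = 0.0059). HLA genes are alike in sequence, and how reads were shared between them is uncertain. The leukocyte markers, which include other genes of such cells, also had their highest sums at week 2, as given above.

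Interferon-stimulated genes divided, with 12 of 24 called higher and 6 lower. The higher count ranged from 9 to 12 over the alternative settings and was 10 without the libraries that stood apart. Those called higher included IFIT1 at 2.22 (SE 0.36, adjusted p = 6.8e-06), IFI27 at 2.14 (SE 0.58, adjusted p = 0.0027) and OAS1, which fell and then rose. Counts were low, 262, 110, 79 and 169 for IFIT1 and 45, 45, 20 and 95 for IFI27 in time order. Those called lower were mostly regulators, among them IRF1 at -3.46 (SE 0.18, adjusted p = 3.9e-16), IRF7 at -2.37, STAT2 at -1.07 and IRF9 at -1.46, and they also included MX2 at -1.10. IFI44L was at 1.75 (SE 0.70, adjusted p = 0.04) in low counts and lost its call in 12 of 18 alternative settings.

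Metabolic lists had median interactions closer to 0, 0.39 for glycolysis and hypoxia and 0.30 for oxidative phosphorylation. Glycolysis and hypoxia genes were called higher in 13 of 24 and lower in 3, with a median log2 change of -0.81 in the first exposure and -0.29 in the second. LDHA, lactate dehydrogenase, fell in both, -1.51 in the first exposure and -0.27 in the second, with an interaction of 1.24 (SE 0.10, adjusted p = 1.1e-11). PDK1, which restrains pyruvate oxidation, was at 1.45 (SE 0.12, adjusted p = 1.7e-11) and ALDOC, an aldolase, at 2.10 (SE 0.30, adjusted p = 7.4e-07). VEGFA, which the list shares with ATF4 targets, had the other sign at -2.34 (SE 0.09, adjusted p = 9.1e-20). Oxidative phosphorylation genes were called higher in 8 of 24 and lower in 1, against 23.3% and 25.0% of all tested genes. Without the libraries that stood apart, these counts were 5 and 3. PPARGC1A, the co-activator of mitochondrial genes and an MITF target in melanoma, had the largest interaction, 4.10 (SE 0.31, adjusted p = 1.9e-12), having fallen 36.2-fold and then 2.12-fold. The others were smaller, with ATP5C1 at 0.95 and UQCRC2 at 0.83. NDUFA4, the 1 called lower, was at -0.52 (SE 0.17, adjusted p = 0.013), and at -0.38 (adjusted p = 0.087) without replicate 2 of week 2.

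Mitochondrially encoded genes were called higher in 9 of 13 and lower in none, with a median log2 change of -0.70 in the first exposure and -0.06 in the second. MT-ND6 and MT-CYB, subunits of complexes I and III, were at 1.19 (SE 0.24, adjusted p = 1.4e-04) and 1.14 (SE 0.12, adjusted p = 4.0e-09), and MT-ATP8 at 0.90. The share of all counts on these genes and the other mitochondrial ones was 14.9% to 16.4% in untreated libraries, 9.43% to 11.1% at week 1, 12.3% to 13.4% at week 2 and 12.7% to 13.3% at week 3. The part of that share in these calls was not tested. Ribosome biogenesis genes were called higher in 14 of 18 and lower in 2, with POLR1B, a subunit of RNA polymerase I, at 0.96 (SE 0.15, adjusted p = 4.5e-06), DKC1 and FBL, which modify ribosomal RNA, at 0.89 and 0.84, and RRP12 at -0.72.

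Targets of p53 did not move as 1 group, with 10 of 16 called higher and 6 lower, and 9 and 4 without the libraries that stood apart. CDKN1A, the cell cycle inhibitor p21, averaged 316 ± 17.2 CPM untreated, 743 ± 34.9 CPM at week 1, 962 ± 80.5 CPM at week 2 and 641 ± 39.4 CPM at week 3 (SD, n = 3). It rose in the first exposure and fell in the second, with an interaction of -1.82 (SE 0.10, adjusted p = 1.3e-15). GDF15, a stress-induced cytokine, was at -2.34 (SE 0.18, adjusted p = 1.9e-12). DDB2 and XPC, of nucleotide excision repair, and SESN1 had the other sign, at 1.25 (SE 0.10, adjusted p = 7.3e-12), 1.19 (SE 0.09, adjusted p = 4.2e-12) and 1.53 (SE 0.11, adjusted p = 1.3e-12). In the BCL2 family, which sets the threshold of apoptosis, 5 of 14 were called higher and 5 lower, against 23.3% and 25.0% of all tested genes. BCL2 was at 14.1, 12.6, 6.04 and 13.2 CPM in time order, with an interaction of 1.29 (SE 0.21, adjusted p = 8.7e-06). BCL2A1, a survival gene under MITF, fell in both exposures and less in the second, at 1.36 (SE 0.19, adjusted p = 3.6e-07). HRK, which promotes death, fell by 3.83 on the log2 scale in the first exposure and was at -0.35 in the second, at a level of 0.190 CPM at week 2. BMF, also a promoter of death, rose in both and less in the second, at -0.83 (SE 0.12, adjusted p = 7.7e-07).

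**Figure D3:**
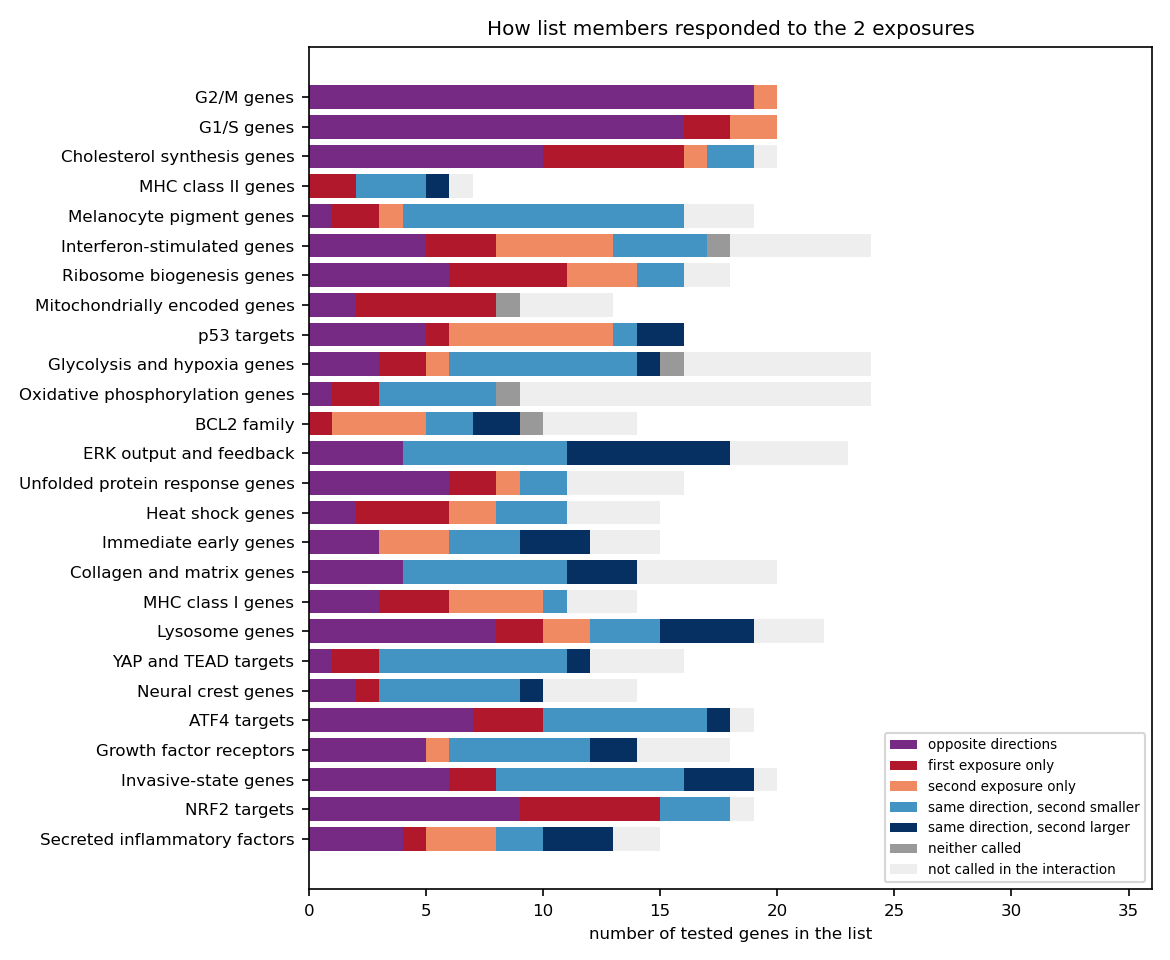
Number of tested genes of each list (x axis) by how they moved in the 2 exposures, ordered by the median interaction. Of the G2/M genes 19 moved in opposite directions, of the melanocyte pigment genes 12 moved the same way with a smaller second response, and light grey stands for genes not called in the interaction.

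The largest negative interactions among genes that averaged 5 CPM or more, with 10 or more counts in each group, were AKR1C1 and CCL3, given above, and 10 others. All of them were lower in untreated cells than at week 2. The ranking favours this, because the interaction subtracts the start difference. NRCAM, a neuronal adhesion molecule (chr7:108147623-108456717), stood at 0.880, 1.07 and 0.871 CPM without drug, 127, 123.3 and 128 CPM at week 1, 185, 181 and 210.1 CPM at week 2 off drug and 61.2, 77.6 and 70.2 CPM at week 3 back on drug. Its interaction was -8.52 (SE 0.19, adjusted p = 1.8e-24), from 7.05 in the first exposure and -1.46 in the second. PTPRN, a protein of secretory granules (chr2:219289623-219309648), stood at 0.240, 0.292 and 0.303 CPM without drug, 21.5, 21.8 and 17.8 CPM at week 1, 159, 173 and 129.7 CPM at week 2 off drug and 34.8, 31.6 and 31.0 CPM at week 3 back on drug. Its interaction was -8.41 (SE 0.22, adjusted p = 2.0e-23). SERPINB2, an inhibitor of plasminogen activators (chr18:63871692-63903890), stood at 4.16, 5.32 and 4.88 CPM without drug, 235, 232 and 243 CPM at week 1, 1449, 1405 and 1279 CPM at week 2 off drug and 255, 215 and 264 CPM at week 3 back on drug. For PTPRN and SERPINB2 all week 2 libraries were above all on-drug libraries, and untreated cells had the least. The interaction of SERPINB2 was -8.11 (SE 0.15, adjusted p = 6.9e-27), and the gene rose 49.2-fold before it fell 5.63-fold. The others were SLC16A6 (-8.11), IGFN1 (-7.88), SLCO2B1 (-7.85), CLCF1 (-7.73), CYP4F11 (-7.66), CALB2 (-7.58) and MMP10 (-7.14). MMP10 had 14, 17, 6290 and 58 counts in time order, and its SE was 0.91. Both MMP10 and CCL3 reached the mean of 5 CPM through week 2 alone. CLCF1 and CALB2 had 24 and 15 counts in untreated cells. CYP4F11 has close relatives with which reads could be shared.

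The 12 largest positive interactions under the same limits were all of genes that fell in the first exposure. Ranking by the interaction favours such genes, because it subtracts the first response. GPRC5B, an orphan receptor (chr16:19856691-19886167), stood at 183, 194 and 190.2 CPM without drug, 2.39, 1.90 and 1.88 CPM at week 1, 4.99, 5.54 and 7.28 CPM at week 2 off drug and 3.19, 4.09 and 3.84 CPM at week 3 back on drug. It fell 92.6-fold and then 1.61-fold, for an interaction of 5.85 (SE 0.19, adjusted p = 9.4e-21). FABP7, a fatty acid binding protein of neural cells (chr6:122779475-122784074), stood at 642, 708 and 687 CPM without drug, 4.47, 4.79 and 5.03 CPM at week 1, 9.93, 12.6 and 10.8 CPM at week 2 off drug and 3.75, 3.69 and 4.17 CPM at week 3 back on drug. Both genes had their highest levels in untreated cells, above every library that had seen the drug. FABP7 had an interaction of 5.63 (SE 0.21, adjusted p = 1.1e-19). POSTN, a matrix protein, averaged 49.9 ± 2.32 CPM untreated, 6.72 ± 0.324 CPM at week 1, 0.272 ± 0.223 CPM at week 2 and 1.44 ± 0.311 CPM at week 3 (SD, n = 3). It fell by 2.89 and rose by 2.32 on the log2 scale, for an interaction of 5.22 (SE 0.36, adjusted p = 1.8e-13). QPRT, an enzyme of NAD synthesis, fell 1.99-fold and rose 17.5-fold, at 5.12 (SE 0.27, adjusted p = 3.4e-16). The others were ASB2 (4.57), SLAMF7 (4.26), COL14A1 (4.23), ATOH8 (4.17) and AGMO (4.17), beside DCT, FOS and EGR1 described above.

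Single genes show what each way of differing looked like. NRG1, a ligand of ERBB3, was called in the first exposure and not in the second. It stood at 0.400, 0.454 and 0.454 CPM without drug, 44.9, 41.3 and 41.3 CPM at week 1, 50.2, 54.0 and 59.2 CPM at week 2 off drug and 48.8, 52.1 and 62.7 CPM at week 3 back on drug. NRG1 rose 96.1-fold and had overlapping libraries at weeks 2 and 3 and an interaction of -6.58 (SE 0.20, adjusted p = 2.2e-21). DMTN, an actin-bundling protein, likewise had 7.07 in the first exposure and -0.05 in the second. SPANXB1, one of a family of near-identical testis genes whose counts are uncertain, had 5.69 in the first exposure and 0.24 in the second. The complement factor C3 was called in the second exposure alone, at 0.145, 0.187, 27.3 and 0.391 CPM in time order, with an interaction of -6.47 (SE 0.89, adjusted p = 3.4e-07).

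MYH14, a non-muscle myosin, moved the same way and more in the second exposure, with -1.23 in the first exposure and -6.58 in the second and an interaction of -5.35 (SE 0.21, adjusted p = 6.3e-19). KRT79 and SPRR2D, epidermal structural genes, did so too, at -4.04 and -3.75, the latter one of a family of close copies. MYOF, a membrane repair protein, and KCND3, a potassium channel, rose less the second time. MYOF rose by 9.28 and then 3.14, and KCND3 by 7.45 and then 0.98. Among genes called in neither response the largest interactions under those limits were those of ZC3HAV1L at 1.16 (SE 0.38, adjusted p = 0.013), RPL39 at 1.03 (SE 0.33, adjusted p = 0.011), SNHG18 at 0.68 (SE 0.24, adjusted p = 0.019) and SMN1 at 0.68 (SE 0.27, adjusted p = 0.036). Pseudogenes could share reads with RPL39. RPL39 and SNHG18 lost the call without the libraries that stood apart (adjusted p = 0.098 and 0.19), and SMN1, which has the near-identical copy SMN2, lost it in 8 of 18 settings.

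**Figure D4:**
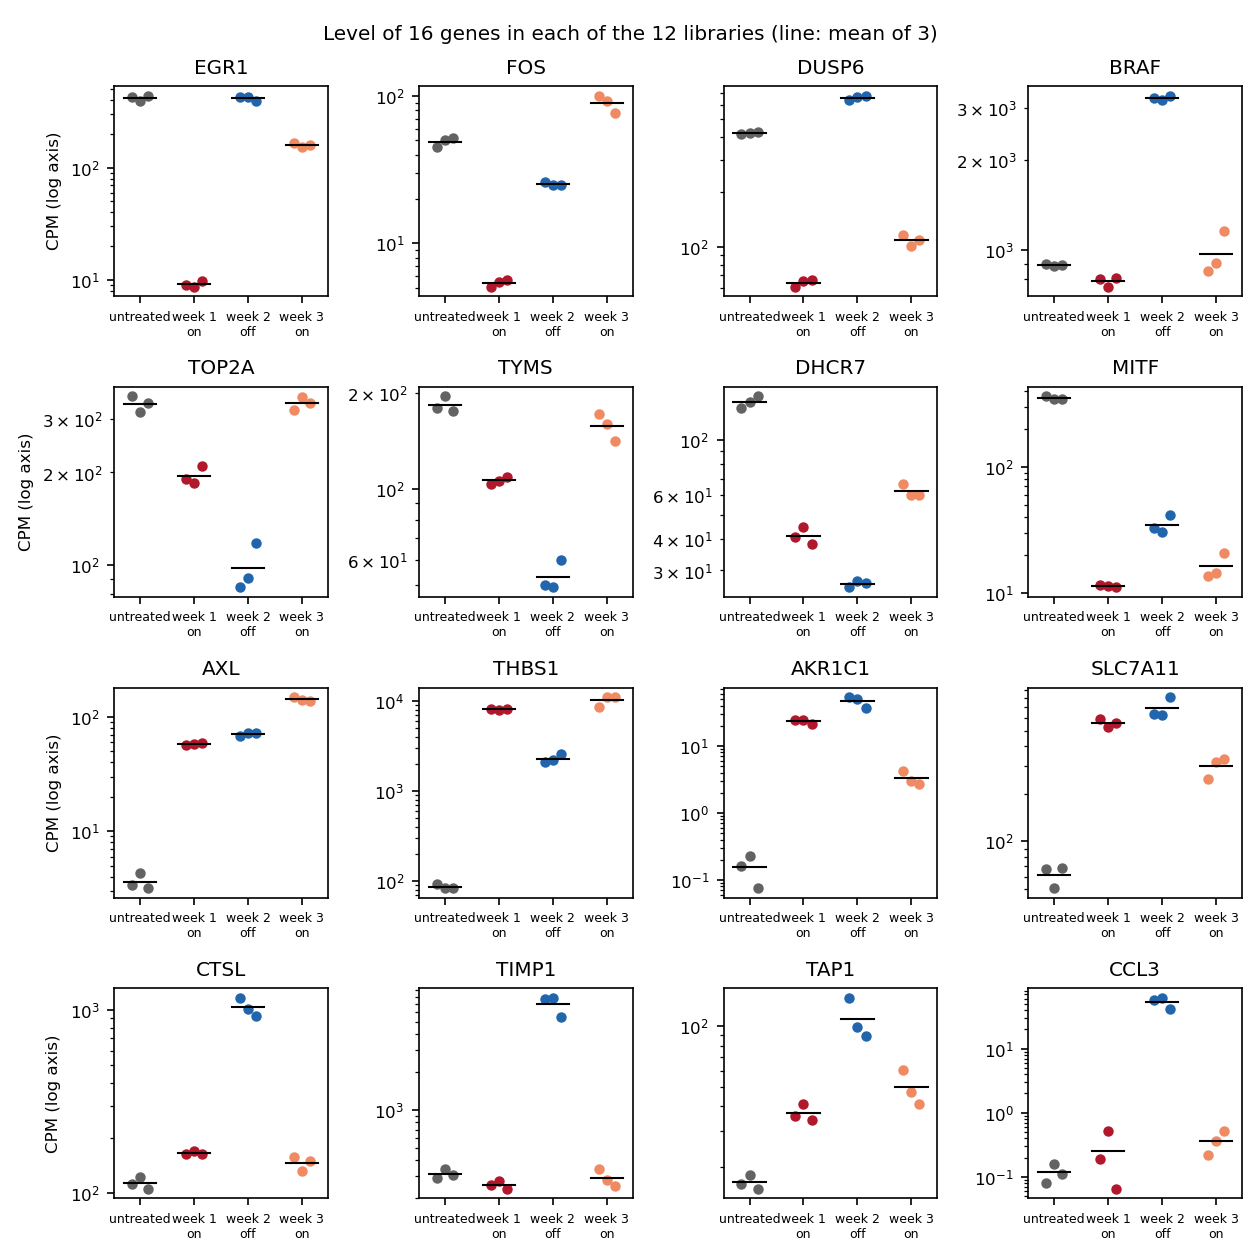
Level of 16 genes in CPM (log y axes) in each of the 12 libraries, grouped as untreated, week 1 on drug, week 2 off drug and week 3 on drug, with a line at the mean of 3. EGR1 and FOS were higher at week 3 than at week 1, TOP2A and TYMS were lowest at week 2, and CTSL, TIMP1 and CCL3 were highest at week 2.

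Genes with 3 or fewer counts in 1 of the groups are given by their counts alone, over 3 libraries per group in time order. Called higher were KLHL14 with 77, 9, 0 and 35 counts, LINC01608 with 35, 1, 0 and 4, CYP26A1, which breaks down retinoic acid, with 385, 6, 3 and 17, and DENND2D with 102, 2, 2 and 10. Each had its highest count in untreated cells. Called lower were TRIM54 with 0, 182, 2659 and 136, LINC00536 with 0, 110, 673 and 99, GPIHBP1 with 0, 1, 210 and 0 and KRT36 with 0, 2, 95 and 0. Each of these had no count in untreated cells and its highest count at week 2 off drug. Ranking by the interaction favours both patterns. The calls of LINC01608, DENND2D and GPIHBP1 were lost without 1 library each: replicate 2 of week 3 (adjusted p = 1), replicate 1 of week 3 (adjusted p = 0.90) and replicate 2 of week 1 (adjusted p = 1).

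Of the 893 genes called in the end difference and not in the start difference, 8 are given as examples that were chosen after their values were seen. Besides EGR1, they were PTN, VEPH1 (2.01) and LRP4 (1.70) with a positive interaction and COL19A1, ETS2, NRXN2 (-1.64) and LGI3 (-1.58) with a negative one. PTN, a heparin-binding growth factor, was at 8.10, 4.17, 6.56 and 23.6 CPM in time order, with an interaction of 2.80 (SE 0.20, adjusted p = 3.1e-13) and a start difference of -0.30. VEPH1 had fallen by 2.25 on the log2 scale in the first exposure and was at -0.24 in the second. COL19A1, a collagen chain, was at 92.5, 53.9, 115 and 14.4 CPM, with an interaction of -2.22 (SE 0.23, adjusted p = 1.4e-09). ETS2, a factor of the ETS family, was at 9.74, 147, 9.72 and 46.8 CPM, so that it rose both times and by less the second, with an interaction of -1.65 (SE 0.12, adjusted p = 1.2e-12). By this choice, the difference between week 2 off drug and untreated cells did not pass the test in any of the 8, and that between week 3 and week 1 did.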

How the data were processed

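Polyadenylated RNA of the 12 libraries was sequenced by the authors, and the table they deposited gives whole-number counts of reads for 60675 genes, not normalized. Per the submitters' processing notes the tools were HISAT2 2.0.3, HTSeq 0.6.1, Trimmomatic 0.32 and SAMtools 0.1.18, and the build GRCh38. The annotation release and the strand setting are not given in the sources used here, so counts of overlapping and antisense genes are uncertain. Per the labels, cells were kept frozen and their RNA was isolated together once the course had ended.

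After filterByExpr and TMM scaling, the counts of all 29 libraries were fitted together by the quasi-likelihood method of edgeR 4.0.16 (R 4.3.3), with 1 term for each of 10 groups, so that the groups share 1 estimate of spread. Contrasts were tested over 20494 genes with Benjamini-Hochberg adjustment at 0.05. Tested genes held at least 99.9% of the counts of each of the libraries. Each standard error is the estimate divided by the root of its F. CPM values, counts scaled to library size, use the TMM factors. A fold change is 2 to the power of the fitted log2 change. Positions are from GENCODE 29 on GRCh38, which matched 20326 tested genes, and promoters from RefSeq. The procedure was tested on simulated counts.

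The members, lists and tests were chosen with earlier results of these data known. Named genes were 12 chosen by role, the 12 largest interactions in each direction with a mean of at least 5 CPM, at least 10 counts in every group and the same sign in every leave-one-out fit, up to 3 called genes per list and 1 against it, the 4 largest per response class, and up to 4 in each direction with 3 or fewer counts in a group. Clone names, bare identifiers, pseudogenes, antisense transcripts and shared symbols were left out of the largest, class and low-count sets. Further list members are named with their values to describe a list, and these were picked after the values were seen. Alternatives were DESeq2 1.42.0, RLE size factors, no count filter, the 12 libraries alone, a replicate block, a size threshold, and leaving out each library. A fit without both libraries that stood apart was chosen after seeing the data.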

Additional observations from a re-analysis of the deposited data

Results flagged for a closer look

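The test of the difference between the 2 exposures itself marked 4782 genes whose second response lay above the first and 5116 whose second response lay below it (edgeR quasi-likelihood test, adjusted p under 0.05). The single genes given here had the 4 largest absolute interactions among the 2678 called genes that moved in opposite directions. The limits on mean CPM, counts and leave-one-out sign set for named genes applied. These genes were AKR1C1 with a log2 interaction of -10.98, NRCAM with -8.52, PTPRN with -8.41 and SERPINB2 with -8.11. All 4 rose in the first exposure and fell in the second, from 7.16 to -3.82 on the log2 scale for AKR1C1, 7.05 to -1.46 for NRCAM, 6.16 to -2.24 for PTPRN and 5.62 to -2.49 for SERPINB2. Each kept its direction and its call in all 18 alternative settings. The direction in the leave-one-out fits was fixed by the choice of these genes, which required the same sign there.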

How the results depend on the processing

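Calls in the interaction ranged from 4364 to 4736 higher and 5072 to 5408 lower over DESeq2, RLE size factors, no count filter, the 12 libraries alone, the replicate block and the fit without the libraries that stood apart, the last chosen after seeing the data. Leaving out each library in turn gave 4432 to 4951 higher and 4584 to 5212 lower. Between 88.9% and 98.4% of the 9898 calls were kept in the same direction in every alternative fit, and none was called in the opposite direction. With an absolute log2 interaction of at least 1, 2342 genes were higher and 2844 lower, because fewer genes reach that size. The replicate block, a term for the replicate number, called 4736 higher and 5072 lower. The labels do not pair the libraries by number, and deviations of same-numbered libraries correlated from -0.57 to 0.59, with 9 of 18 pairs over 0.1 and 5 of 12 libraries closest to their own number. Of 148 named genes, 138 kept direction and call in every setting and none reversed. For the genes named as the largest or by response class, the same sign in every leave-one-out fit was a condition of choice. The 10 others were CCND1, CSF2, IFI44L, NDUFA4, RPL39, SNHG18, SMN1, LINC01608, DENND2D and GPIHBP1, for which the cause was not tested. Genes with few counts are limited by depth, as 3 or fewer counts in a group leave the size of a change undetermined.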
